A study of Caenorhabditis elegans with 2 samples.

Results

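The pooled peak list of AKIR-1::GFP held 6321 peaks on chromosome V, of 30000 peaks in all. They were taken by the chromosome name given for each peak, and no measured value was used. The other autosomes held 3737 peaks (I), 4271 (II), 3550 (III) and 4886 (IV), together 16444, and are the reference below. The material was whole young adult Caenorhabditis elegans of mixed sex, 70 hours old, synchronised by starving L1 larvae after bleaching. The strain, IG1654, carries the allele frSi12 on chromosome II, made with the construct pNP157, which expresses AKIR-1::GFP from the akir-1 promoter. The labels give a C-terminal GFP-FLAG tag and a CRISPR insertion. The labels describe a precipitation with an antibody against GFP, while their antibody field names akir-1, so whether untagged AKIR-1 was also precipitated is not known. There was 1 group of 2 biological replicates, numbered 3 and 4. No worms without the transgene are part of the comparisons. As whole animals were used, the tissue behind a peak is unknown.

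Akirins are nuclear proteins that act with chromatin remodelling complexes and transcription factors rather than by a DNA-binding domain of their own. In worms, akir-1 takes part in turning on antimicrobial peptide genes of the nlp and cnc families when the epidermis is infected. The autosomes of C. elegans have a central cluster rich in conserved genes, flanked by arms with more repeats, more recombination and more of the rapidly changing gene families. Chromosome V is the longest autosome and carries most of the chemoreceptor genes and of the nuclear hormone receptor genes.

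The strongest peaks on V lay mainly in promoters of protein-coding and snoRNA genes. As examples, 6 of their summit windows are shown, all at promoters of snoRNA, other ncRNA or protein-coding genes. Peaks outside promoters and at tRNA genes are not among them. Each window has 101 bases around the summit, on ce11 (WBcel235), read 5′ to 3′ from the RefSeq assembly. The windows are at chrV:8500513-8500613 for the snoRNA gene ZK994.7, chrV:12303579-12303679 for the snoRNA gene C51F7.4 and chrV:11782906-11783006 for the snoRNA gene F55A11.10, all on the plus strand. Those on the minus strand are at chrV:10897331-10897431 for sec-61.G, chrV:14685748-14685848 for the shared region of C47E8.4 and hsp-90, and chrV:13646329-13646429 for the ncRNA gene H37A05.5. Capitals mark matches, on either strand, to 4 short motifs: GTTCGANNC (the B box of tRNA genes), TATAAA (the TATA box), TGATGA (the C box of snoRNA) and GAGAGA.
ZK994.7: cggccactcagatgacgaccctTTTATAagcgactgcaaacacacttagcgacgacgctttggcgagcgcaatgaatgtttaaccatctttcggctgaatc
C51F7.4: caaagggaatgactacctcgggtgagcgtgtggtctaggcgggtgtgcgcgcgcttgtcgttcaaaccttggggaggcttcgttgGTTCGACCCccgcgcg
F55A11.10: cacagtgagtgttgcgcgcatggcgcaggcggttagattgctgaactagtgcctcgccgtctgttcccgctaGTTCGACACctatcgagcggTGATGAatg
sec-61.G: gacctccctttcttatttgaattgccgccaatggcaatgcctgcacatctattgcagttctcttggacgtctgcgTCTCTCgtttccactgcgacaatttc
C47E8.4 and hsp-90: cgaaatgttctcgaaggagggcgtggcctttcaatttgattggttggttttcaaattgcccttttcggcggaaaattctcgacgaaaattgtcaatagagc
H37A05.5: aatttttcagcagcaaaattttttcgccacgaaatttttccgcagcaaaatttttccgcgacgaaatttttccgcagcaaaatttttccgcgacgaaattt

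The B box letters stood in the windows of C51F7.4 and F55A11.10, both annotated as snoRNA genes, and the C box letters in that of F55A11.10. On the other strand, the ZK994.7 window held the TATA box letters and the sec-61.G window the GAGAGA letters, and the windows of C47E8.4 and H37A05.5 held none of the 4 motifs. The H37A05.5 window repeats aaattttt 5 times. Over the 57 V peaks that are also in the IDR-thresholded list (the list of peaks that the authors' comparison of replicates retained), GAGAGA was in 15.8% of windows (9 peaks, 95% Wilson interval 8.54 to 27.4%). It was in 10.9% of the 468 V windows ranked 401 to 3000, 6.63% of all V peak windows, 5.35% of those ranked 22501 to 30000, and 4.78% of the 207170 windows of the same length that tile V. The strongest 400 peaks of I to IV had it in 20% of 230 windows. TATAAA was in 10.5% of the 57 windows, 10.9% of all V peak windows and 11.4% of the tiled windows. TGATGA was in 7.02%, 8.95% and 7.81% of these. GTTCGANNC was in 3.51% (2 peaks, both among the windows shown), 0.807% and 0.814%. In the 230 windows of I to IV, TATAAA was in 3.91%, TGATGA in 5.65% and GTTCGANNC in 6.09%. A match describes letters only, and these shares were not tested.

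The highest signal value on V was 289, at ZK994.7, with the summit 16 bp upstream of the gene and inside pxn-1, which encodes a peroxidasin. The signal value is the authors' score of a peak on an unstated scale that differs between lists, so levels are compared within a list. The same site reached 139 in replicate 3 and 150 in replicate 4, at ranks 19 and 24 of those lists. The second peak, of 277, spanned 14055145 to 14055307 in intergenic sequence, 1518 bp upstream of the pseudogene F58D12.2. It was the only V peak that was not 380 bp wide. F25H9.6, a protein-coding gene, had its start exactly at the next summit (pooled 239, replicate 3 130, replicate 4 105), which lay 15 bp upstream of F25H9.7.

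Among the 20 strongest V peaks, 16 summits lay in a promoter, here the stretch from 500 bp before an annotated start to 100 bp after it. The nearest start was of a protein-coding gene for 10, a snoRNA gene for 6, another ncRNA for 2, a tRNA for 1 and a pseudogene for 1. All 6 snoRNA summits were inside a protein-coding gene, so a summit in such a promoter also lies in the larger gene. They were at ZK994.7, C51F7.4 (222), T03F7.8 (207), F55A11.10 (204), C08D8.3 (153) and C27H6.5 (148), the last inside unc-41, which acts in synaptic vesicle endocytosis. The tRNA gene F57F5.t1 reached 149, with 106 in replicate 3 and 40.3 in replicate 4, at ranks 59 and 2197. Its values differed more between replicates, as a ratio, than those of the others, and 16 of the 20 ranked in the strongest 400 of both.

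Some promoter summits near the top were shared by more than 1 gene, and others lay at 1 gene. The summit shared by C47E8.4 and hsp-90, the cytosolic HSP90 chaperone, lay 313 and 362 bp upstream of a start of each and had 189 in the pooled list, 93.9 in replicate 3 and 95.9 in replicate 4. That of sec-61.G, the gamma subunit of the channel into the endoplasmic reticulum, had 157, 82.3 and 82. The kinase gene pak-2 had 148, 84.8 and 65.1, and the peak shared by T10B5.13, T10B5.4 and the chaperonin subunit gene cct-7 had 144, 80.9 and 69.3. C50B6.3 (145), F13A7.14 (143) and T07F10.3 (139) followed with promoter summits 278, 171 and 69 bp upstream. Summits outside promoters were in an intron of ccch-1, a CCCH zinc finger gene (164), in intergenic sequence 1317 bp upstream of ret-1, the worm reticulon (141), and in a coding exon of F26F12.3, nearest to F26F12.2 (141). The pooled peak of H37A05.5 (237) had 74.2 in replicate 3 and 162 in replicate 4. Of these 20 peaks, 14 lay in the centre, 4 on the right arm and 2 on the left arm.

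Most of the 6321 peaks were far weaker than these. Their median signal value was 44 (quartiles 38 and 53.1), and 50 of them (0.791%) had a q-value under 0.05, against 212 on I to IV (1.29%). The highest q-value on V was 0.802. Each complete list was filled to 30000 peaks, so the share of one chromosome depends on the others. The lists hold no read counts, and the depth is unknown.

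Chromosome V was the autosome with the highest peak density in the pooled list and in both replicate lists. It had 302 pooled peaks per Mb, against 248 on I, 280 on II, 258 on III and 279 on IV, 1.13 times the density of I to IV together. Replicate 3 gave 303 per Mb (248 to 285 on the others) and replicate 4 301 (255 to 283). Chromosome X had 407 per Mb in the pooled list, more than any autosome. Peaks covered 11.1% of V and 9.11 to 10.3% of the other autosomes. A position of V is called above or below the other autosomes here where it lies outside the range of I to IV in all 3 of these lists. Of 38 quantities set against I to IV in this way, several of which overlap, V was above in 6, below in 2, within in 17, and 13 differed between lists. Chromosomes are single units, and these differences were not tested.

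Each chromosome was divided into 3 equal lengths, a left arm, a centre and a right arm, and the left arm of V differed most from its counterparts. It held 288 pooled peaks per Mb, where the left arms of I to IV held 204, 211, 189 and 214. The values were 290 in replicate 3 (others 188 to 222) and 285 in replicate 4 (203 to 221). The centre of V had 384 per Mb, also above the others (347 to 373), with 375 and 384 in the replicates. Per 100 annotated starts the centre of V had 70.7 pooled peaks, within the others (47.7 on IV to 79.7 on I). By that measure the left arm of V had 66.3, above the others (33.1 on IV to 61.7 on I). The right arm of V had 234 per Mb, between 182 on I and 273 on IV. With the left arms set aside, V was 1.04 times as dense as I to IV, and the left arms alone gave 1.41 times, a split chosen after the values were seen. The right arm had 0.813 times the density of the left arm on V, and 0.891 to 1.28 times on I to IV. The replicates gave 0.836 and 0.823 for V, below the lowest other values of 0.933 and 0.91.

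**Figure D1:**
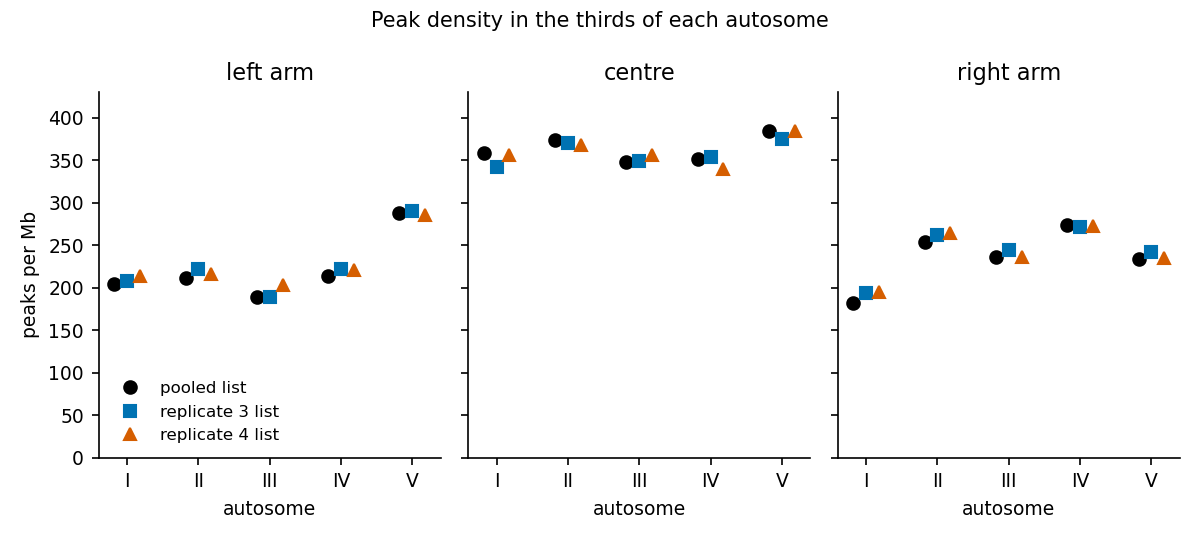
Peaks per Mb (vertical axis) in the left arm, centre and right arm of autosomes I to V, with 1 symbol for each of the pooled, replicate 3 and replicate 4 lists. In the left arm the 3 symbols of V, at 285 to 290, lie above those of all other autosomes, and in the right arm V lies among them.

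Both arms of V together had 0.68 times the density of its centre (0.709 in replicate 3, 0.677 in replicate 4), against 0.537 on I to 0.693 on IV. In replicate 3 V exceeded the highest other value, 0.697, and in replicate 4 it did not reach it, 0.727. Per annotated start the arm to centre ratio on V was 0.831. In make-up the left arm of V was close to that of II: coding bases made up 21.9% and 21.8%, soft-masked repeats 37.7% and 36.4%, and positions that start a 31-base word found once in the genome 88.5% and 88.8%. GC content was 35.8% in the left arm of V and 36.8% in that of II. The left arm of II had 211 peaks per Mb, and the part of make-up in the density was not tested.

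Among protein-coding genes of the left arm of V, 379 of 1554 had a pooled summit in the promoter (24.4%, 22.3 to 26.6%), against 15.6% of 3815 genes in the left arms of I to IV. This was above each of I to IV in all 3 lists. The share was 26.5% for 1202 left-arm genes outside the chemoreceptor families and 15.8% for their counterparts (replicate 3 24.8% and 17%, replicate 4 27.5% and 17.1%). In the centre the shares were 26.5% on V and 26% on I to IV, and in the right arm 17.3% and 19%, both within the range of the other autosomes.

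Along V, 200-kb bins held 6 to 103 pooled summits, with a median of 63 over 104 full bins. The centre ran from 52 to 95 (median 76), the left arm from 13 to 103 (median 56) and the right arm from 6 to 89 (median 48). Bin counts of the replicates followed each other with r = 0.88 (Spearman 0.86), as a description over 104 bins that share repeats and gene content. Over the same bins the pooled count had r = −0.80 (Spearman −0.77) with the soft-masked share, 0.62 (0.59) with the number of starts, 0.58 (0.57) with the coding share, 0.53 (0.73) with the share of unique 31-base words and −0.15 (−0.26) with GC content.

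**Figure D2:**
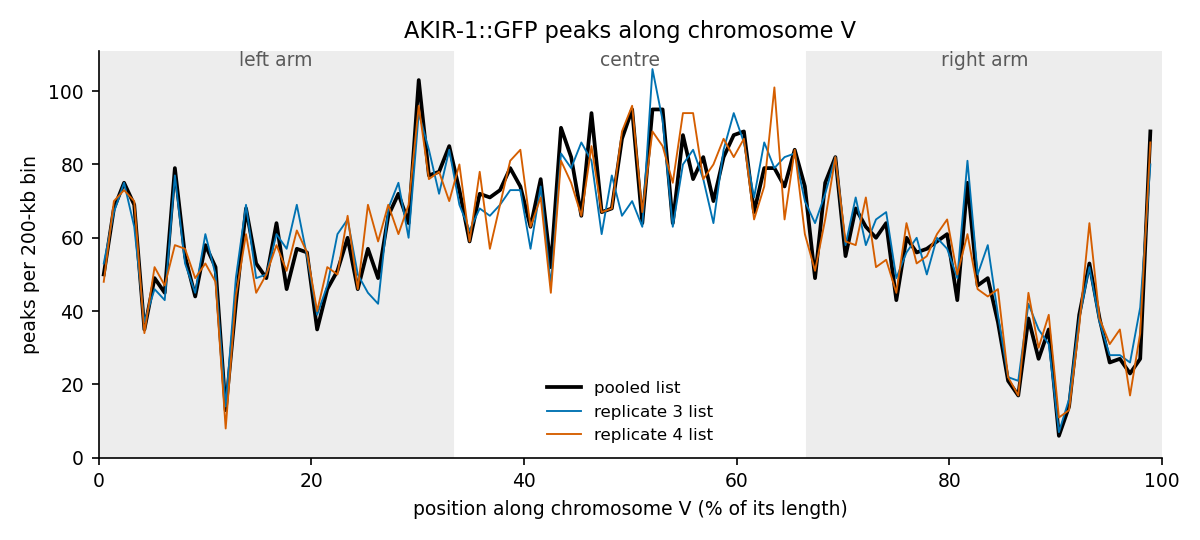
Peak summits per 200-kb bin (vertical axis) along chromosome V in percent of its length, for the pooled (black), replicate 3 (blue) and replicate 4 (orange) lists, with both arms shaded. In the pooled list counts are high through the centre, dip to 13 on the left arm and 6 on the right arm, and rise to 89 in the last full bin.

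The densest bin lay at the inner edge of the left arm, from 6200001 to 6400000, with 103 pooled, 94 replicate 3 and 96 replicate 4 summits. Its strongest promoter peak, of 131, was shared by the snoRNA gene W06H8.17 and the ncRNA genes W06H8.12 and W06H8.13. Next came 3 bins of 95 in the centre. The bin from 10400001 holds F22E12.9 and F22E12.10 (both 110), C35A5.8 and the histone deacetylase gene hda-11 (both 101). The bin from 10800001 holds sec-61.G, F17C11.11 with the pseudogene F17C11.16 (both 97.1) and plrg-1, a splicing factor gene (91.9). The bin from 11000001 holds pak-2 and pptr-2, a regulatory subunit gene of protein phosphatase 2A (97.9). The pptr-2 peak is shared with the ncRNA genes C13G3.6 and C13G3.8, which lie inside pptr-2. Near the right end, the bin from 20600001 had 89 pooled summits between a bin of 27 and a shorter end bin of 31. It had 80 in replicate 3 and 86 in replicate 4.

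The emptiest bin, from 18800001 to 19000000, had 6 pooled, 7 replicate 3 and 11 replicate 4 summits. It contains emb-4, nhr-65, ptr-22 and sri-10, none of which had a promoter summit in any of the 3 lists. Of its bases 55.1% are soft-masked, and 86.7% of its 31-base words are unique. The bin from 2400001 to 2600000 had 13, 14 and 8, and its promoter summits were weak, at the piRNA gene 21ur-15315 (42.6), C29G2.6 (37.2) and irg-3 (36.1).

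That bin overlaps the longest stretch of any autosome without a pooled summit, from 2340888 to 2566562 (226 kb), where the next longest was 136 kb, on III. Replicate 3 had 1 summit there and replicate 4 none. The stretch holds 60 genes, 48 of them protein-coding, including 19 chemoreceptor genes such as srd-61, str-76 and srt-1, and gst-10 of the glutathione S-transferases. Only 3.74% of its 31-base words are unique in the genome, and 88% occur exactly 2 times, with both copies inside the stretch. A stretch of 91.1 kb in the centre, from 8812203 to 8903273, had no pooled summit and 1 in each replicate, and holds 14 of the histone genes. There 6.44% of words are unique and 93.5% have another copy inside it. Another stretch, of 106 kb on the right arm from 18014793, has 67.3% unique words, with 5 summits in replicate 3 and none in replicate 4. Stretches of 95.4 to 98.8 kb on the right arm, around ncs-5 and hrg-10, have 84.8 to 86.9% unique words, and replicate 4 had 7 summits in the one around hrg-10. How the authors treated reads that map to several places is not given in the sources used here, and the part of repeated sequence in these gaps was not tested. Neighbouring summits on V were a median of 1955 bp apart (1945 to 2044 on I to IV), and V had 13 gaps over 50 kb, against 13 to 23.

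The higher density of V was seen in the long lists, and among the strongest peaks V had fewer per length than I to IV. V makes up 25.3% of autosomal length. It held 8 of the 60 autosomal peaks among the strongest 100 of the pooled list (13.3%, 6.91 to 24.2%), 57 of 287 among 400 (19.9%, 15.7 to 24.9%) and 313 of 1495 among 2000 (20.9%, 18.9 to 23.1%). Its share was 24.1% among 5000, 26.1% among 10000 and 27.8% among all. In replicate 3 the share went from 18.3% among 400 to 27.6%, and in replicate 4 from 16.2% to 27.4%. The 400 peaks of the IDR-thresholded list include the same 57 on V and 230 on I to IV as the strongest 400 of the pooled list, so it is not a further measure: it had 2.72 peaks per Mb on V, lower than on IV (3.03), I (3.58), II (4.06) and III (4.43). The left arm of V had 1.72 pooled peaks per Mb among the strongest 400, inside the range of 1.18 to 3.58 on the others, and 89.2 among the strongest 10000, above their 65.8 to 78.2. In the replicates the latter was also above the others (88.2 and 88.5), and among the strongest 400 replicate 4 put V below them (1.72 against 1.77 to 3.78).

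**Figure D3:**
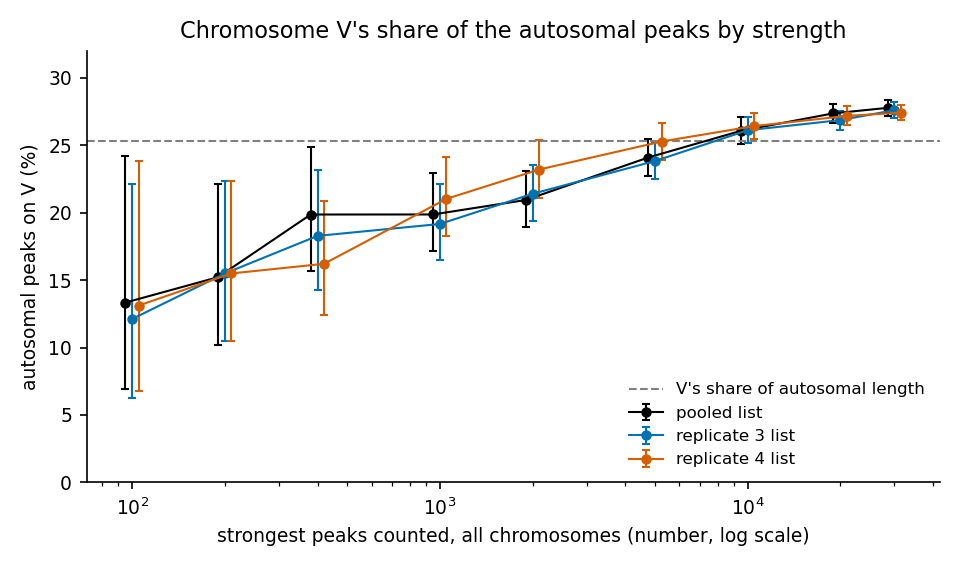
Share of autosomal peaks that lie on V (vertical axis, percent) among the strongest peaks of each list (horizontal axis, log scale), with 95% Wilson intervals, for the pooled (black), replicate 3 (blue) and replicate 4 (orange) lists. The share climbs from 12.1 to 13.3% among the strongest 100 to 27.4 to 27.8% among 30000, and crosses the dashed line of length, 25.3%, after 5000 peaks in the pooled and replicate 3 lists and close to 5000 in replicate 4.

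The median signal value of V was below those of I to IV in all 3 lists, by little. It was 43.95 in the pooled list against 44.07 to 45.26, 25.64 in replicate 3 against 25.67 to 26.40, and 24.618 in replicate 4 against 24.623 to 25.047. Medians of the left arm, centre and right arm of V were 43.9, 44.3 and 43.7 in the pooled list. Peaks of V had a mean GC content of 37.4% in 151 bases around the summit, and those of I to IV 38.3%. It fell from strong to weak peaks on V, from 45.4% in the strongest 400 to 36% in ranks 22501 to 30000.

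Summits of V were placed over the annotation much as on other autosomes. In the pooled list 26.4% lay in promoters (25.3 to 27.5%), where 23% of the bases of V are promoter, a ratio of 1.15 (1.12 in replicate 3, 1.17 in replicate 4). The ratio was 1.11 to 1.26 on I to IV. Coding exons held 28.5% of summits and 22.6% of bases, introns 20.1% and 26.4%, and intergenic sequence 17.7% and 21.6%. The class of other exons, mainly exons of pseudogenes and non-coding RNA genes, held 3.99% of V summits, above the 1.58 to 2.18% on I to IV. It also takes up 3.56% of the bases of V and 1.74% of I to IV, and the ratio to bases on V, 1.12, lay within their range of 0.936 to 1.17 (in replicate 4, 0.973, below 1.02 to 1.09). On the right arm of V, which has 524 of its 867 pseudogenes, other exons held 7.65% of summits and 5.52% of bases.

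Promoter placement was concentrated in the strong peaks. Of the 57 V peaks ranked 1 to 400, 71.9% were in promoters (59.2 to 81.9%), then 44.9% of ranks 401 to 1000, 33.2% of 1001 to 3000 and 24.6% of 22501 to 30000. The same ranks of I to IV gave 70.4%, 42.1%, 30.7% and 27.3%. In the IDR-thresholded list 89.3% of 28 centre summits were in promoters, 64.7% of 17 on the right arm and 41.7% of 12 on the left arm. Within 500 bp of a start, V summits ranked 1 to 1000 lay upstream 41 times and downstream 18 times. Ranks 22501 to 30000 lay upstream 227 times and downstream 286 times. I to IV had the same order, with 169 upstream and 58 downstream in ranks 1 to 1000. In their ranks 22501 to 30000 there were 498 and 550.

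Of the pooled V peaks, 2807 (44.4%, 43.2 to 45.6%) overlapped a peak of both replicate lists by at least 1 bp, against 46.1% of those of I to IV. The other autosomes ran from 43.6% on IV to 48.4% on III, so V lay within them. A further 1607 V peaks were found only in replicate 3, 1566 only in replicate 4 and 341 (5.39%) in neither. The pooled list was called on the reads of both replicates, so this is not an independent measure of reproducibility. Set directly against each other, 44.8% of the 6330 replicate 3 peaks on V overlapped a replicate 4 peak and 45.6% of the 6299 replicate 4 peaks a replicate 3 peak. Among the strongest 2000 of each list these shares were 28.7% of 328 and 27.9% of 344. The complete replicate 3 list covered 10.9% of V and that of replicate 4 11.1%. The overlap that placement alone would give was not computed, and it depends on list length. Shares of lists of unlike length are therefore not comparable.

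Presence in both lists fell from strong to weak peaks. It was found for 57 of 57 V peaks ranked 1 to 400, 52.3% of ranks 7501 to 15000 and 15.9% of ranks 22501 to 30000. The last was 17.5% on I to IV. The 57 are the V peaks of the IDR-thresholded list, which the authors' comparison of replicates retained. Their presence in both lists was thus largely fixed by how that list was made. The left arm had 44.4% in both, the centre 45.5% and the right arm 42.5%. Promoter peaks of V were in both more often (49.6%, 47.2 to 51.9%) than intron peaks (40.8%, 38.1 to 43.5%) or peaks in other exons (36.9%, 31.2 to 43%). The strongest peaks were also the most often in promoters. Strength was not held equal between these classes, and the differences were not tested. The share for 162 peaks in 3′ UTRs was 50.6% (43 to 58.2%).

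**Figure D4:**
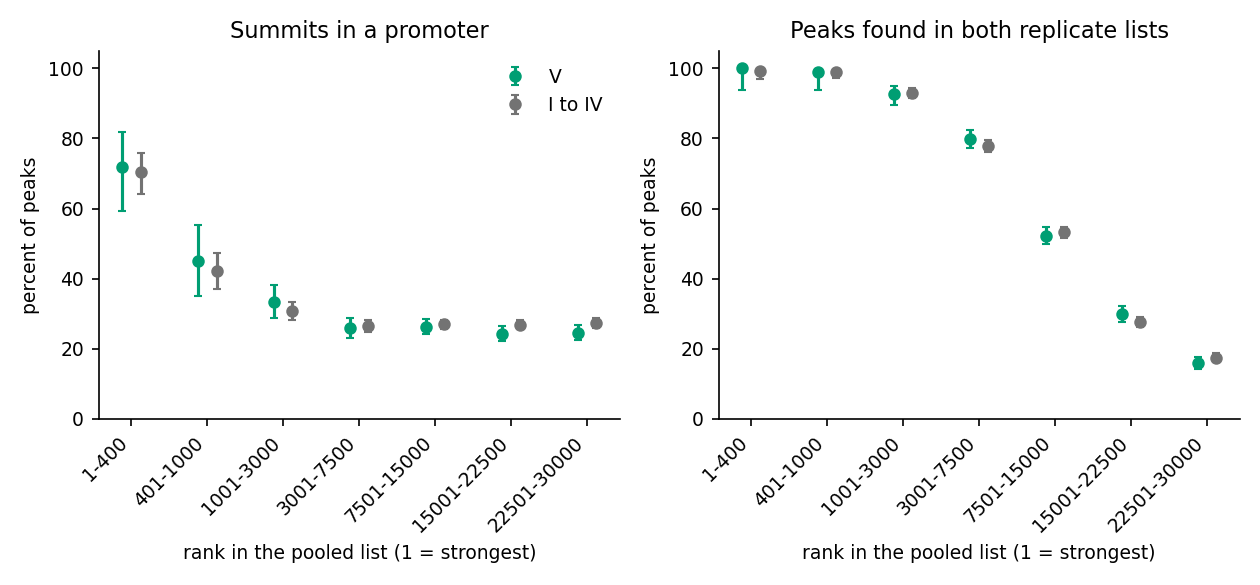
Share of summits in promoters (left) and of peaks found in both replicate lists (right), in percent, by rank in the pooled list, for V (green) and I to IV (grey), with 95% Wilson intervals. Both shares fall from strong to weak peaks, on V from 71.9% to 24.6% and from 100% to 15.9%, and V runs close to I to IV.

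Over all annotated genes of V, 22.5% had a pooled summit in the promoter, against 19.7% on I to IV, whose count includes the piRNA genes of IV. Of the protein-coding genes of V, 1140 of 4994 had one (22.8%), against 20.7% of 12248 on I to IV. V was above each other autosome in the pooled and replicate 4 lists (23.8%) and within them in replicate 3 (21.6%). These shares are the background for the families below.

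Chemoreceptor genes of the sr and str families, which encode receptors that detect odours and other chemicals, had a promoter summit in 160 of 874 cases on V (18.3%, 15.9 to 21%), under the 22.8% of all V protein-coding genes. On I to IV 13.2% of 380 had one. The replicates gave 14.8% and 16.7% on V, and 15.8% and 14.7% on I to IV, so the order of V and I to IV was not the same in replicate 3. By position, the share was 17% in the left arm, where other protein-coding genes had 26.5%, 23.8% in the centre, where they had 26.8%, and 16.3% in the right arm, where they had 17.6%. The gap was widest in the left arm. There, 19 of the 352 chemoreceptor genes lie in the repeated 226-kb stretch without a pooled summit described above. These differences, and the part of that stretch in them, were not tested. The str family had 34 of 157, srh 38 of 180, srx 18 of 79, srw 16 of 95, srj 6 of 37, sri 7 of 21 and srt 4 of 47. The smaller families varied between lists: sri had 3 in replicate 3 and 5 in replicate 4, and srt 3 and 9. The highest values were at srh-269 (pooled 105, replicate 3 50.8, replicate 4 48.8), srj-21 (89.8, 37.1 and 51.8) and srh-2 (81.8, 41.3 and 47.8). The highest of them lay below the weakest of the 57 V peaks in the strongest 400 (108), and 48 of the 874 genes had a promoter summit in all 3 lists.

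Nuclear hormone receptor genes, many of which sense small molecules and set metabolic genes, had a promoter summit in 47 of 167 cases on V (28.1%, 21.9 to 35.4%) and 24 of 79 on I to IV (30.4%). The highest was nhr-68, a regulator of propionate breakdown, with 128 in the pooled list, 57.4 in replicate 3 and 75.3 in replicate 4. That peak is shared with H12C20.7, whose start was nearer, 84 bp from the pooled summit against 366 bp for nhr-68. Next were nhr-204 (71.4) and nhr-256 (71.2). F-box genes had 15 of 87 (17.2%), led by fbxb-72 with 119.1, and C-type lectin genes 19 of 86 (22.1%), led by clec-7 with 80.5. Detoxification families gave 11 of 42 UDP-glucuronosyltransferase genes, led by ugt-41 (66.2), and 7 of 41 cytochrome P450 genes, led by cyp-33C5 (77.5). The intervals of all these families include the 22.8% of V protein-coding genes, which does not show that they are alike.

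Antimicrobial peptide genes of the nlp and cnc families had a promoter summit in 3 of 19 cases on V (15.8%, 5.52 to 37.6%), with 4 in replicate 3 and 6 in replicate 4. They were cnc-10 (pooled 44.3, replicate 3 19.5, replicate 4 23.3), cnc-4 (43.9, 22.5 and none) and nlp-33 (35.4, none and 19). Of these only cnc-10 had one in all 3 lists, and its pooled value was close to the median of all V peaks.

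Families of chaperones, pumps and ribosomal proteins had few members on V. Of 13 heat shock and DnaJ genes 5 had a promoter summit (38.5%, 17.7 to 64.5%), led by hsp-90 and by hsp-6, the mitochondrial HSP70, with 99.4, 54.7 and 42.7 in the pooled, replicate 3 and replicate 4 lists. The small heat shock gene hsp-17 had 68.6. Both V-ATPase genes of V had one in the pooled list. The vha-13 peak, with its summit 480 bp upstream, near the promoter limit of 500 bp, had 115 in the pooled list, 50.4 in replicate 3, where the summit lay outside the promoter, and 78.9 in replicate 4. The proteasome genes had 2 of 5, led by rpt-2 (72.6), with 2 in replicate 3 and 1 in replicate 4. Cytosolic ribosomal protein genes had 2 of 8, rps-16 (57) and rpl-38 (34.8), with 4 in replicate 3 and 1 in replicate 4. On I to IV 27 of 68 had one (39.7%, 41.2% in replicate 3 and 50% in replicate 4), so V was lower in the pooled and replicate 4 lists and higher in replicate 3. Histone genes had 3 of 27 (11.1%), with 4 in replicate 3 and 1 in replicate 4, of which his-37 reached 122, and 14 of the 27 lie in the repeated stretch described above. Cuticle collagen genes had 5 of 32, led by col-142 (61), with 2 in replicate 3 and 6 in replicate 4.

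Of the families plotted, snoRNA and tRNA genes held the largest shares on V. snoRNA genes, which guide RNA modification, had a promoter summit in 28 of 55 cases on V (50.9%, 38.1 to 63.6%), with 40% in replicate 3 and 56.4% in replicate 4. In the centre 22 of 31 had one (71%, 53.4 to 83.9%) and on the arms 6 of 24 (25%, 12 to 44.9%), with 17 and 5 in replicate 3 and 25 and 6 in replicate 4. tRNA genes had 34 of 78 (43.6%, 33.1 to 54.6%), against 55% of 258 on I to IV. The tRNA share of V was below that of every other autosome in both replicates (38.5% and 44.9%), and in the pooled list I was lower (39.4%). After F57F5.t1 the highest tRNA genes were T23F1.t2 (108) and K06A4.t1 (106). snRNA genes, components of the spliceosome, had 8 of 40 (20%, 10.5 to 34.8%), below each of I to IV in all 3 lists (29.3 to 46.2% in the pooled list, V 22.5% and 12.5% in the replicates). The highest was T10H4.16 (83.1). microRNA genes had 6 of 28 in the pooled list, 7 in replicate 3 and 10 in replicate 4 (35.7%), led by cel-mir-241 of the let-7 family (95.6), cel-mir-250 (88.1) and cel-mir-87 (76.4). Where tRNA or snRNA genes have near-identical copies, the values of single genes are uncertain.

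**Figure D5:**
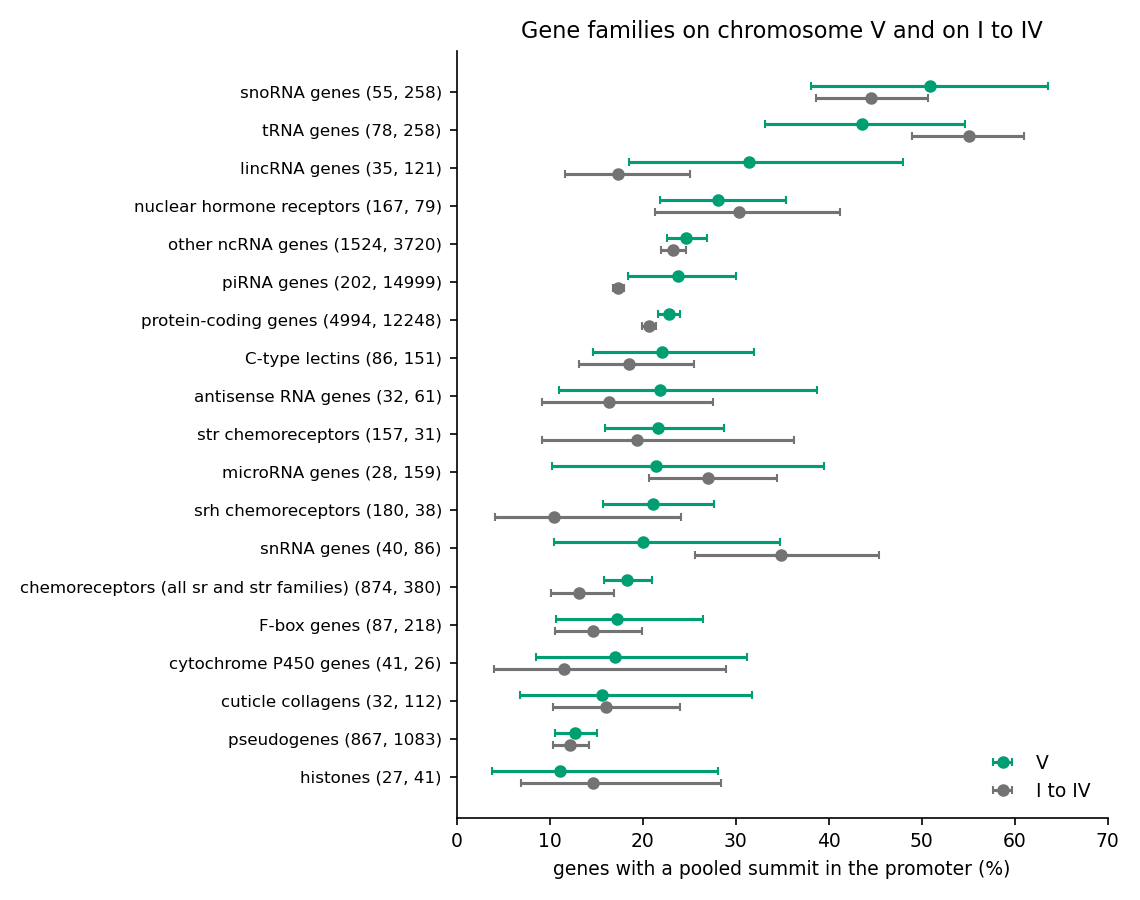
Percent of genes with a pooled summit in the promoter (horizontal axis) for families with at least 25 members on V and on I to IV, with 95% Wilson intervals; V is green and I to IV grey, and the numbers of genes on V and on I to IV stand in brackets. On V snoRNA (50.9%) and tRNA genes (43.6%) lead, and histones (11.1%) and pseudogenes (12.7%) come last.

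The other non-coding classes differed in their distance from the 22.5% of all V genes. Of 1524 ncRNA genes outside the named classes 376 had a summit (24.7%, 22.6 to 26.9%), of 202 piRNA genes 48 (23.8%), of 35 lincRNA genes 11 (31.4%, with 7 in replicate 3 and 8 in replicate 4), and of 32 antisense RNA genes 7, led by anr-36 (133). The summit at anr-36 lay exactly at a start of the protein-coding gene C37C3.18, and 34 bp upstream of anr-36. It was also in the promoter of C37C3.9. Pseudogenes had 110 of 867 (12.7%, 10.6 to 15.1%), against 12.2% on I to IV.

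Of 7 genes that serve as classical genetic markers of V, 2 had a pooled promoter summit. dpy-11, a thioredoxin-like gene that shapes the cuticle, had 97.1 in the pooled list, 48.6 in replicate 3 and 52.2 in replicate 4. unc-76, needed for axon outgrowth, had 73.6, 20.1 and 49.1. him-5, which promotes meiotic crossovers on X, had one only in the replicate lists (25.9 and 19.8), and unc-60, a cofilin gene, only in replicate 4 (27). unc-42, unc-61 and dpy-21 had none in any of the 3 lists.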

How the data were processed

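Chromatin bound by AKIR-1::GFP was sequenced for 2 replicates of whole young adults. Of the 4 deposited peak lists, on ce11, 2 come from 1 replicate each, 1 from both replicates together, and 1 holds the peaks past the authors' IDR threshold. The aligner, peak caller, versions and IDR cutoff used are not given in the sources. The signal of a peak is the authors' deposited value, on an unstated scale. Their deposited −log10 q-value was used to describe peaks, and summits came from their deposited offsets. The number of columns without a group was 0. Depth is unknown, so 95% Wilson intervals over peaks or genes speak for counting error alone.

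Members, gene lists and comparisons were chosen with earlier results of these data known. Genes came from Ensembl release 115 and sequence from RefSeq, both WBcel235, which is the assembly of ce11. A summit was classed by the first match in this order: promoter, exon parts (5' UTR, then coding, then 3' UTR, then any other), intron, and otherwise intergenic. Both arms and the centre are equal in length. Named genes are those at the 20 strongest V peaks, up to 3 members per family with the highest signal, up to 4 in each of the densest (with ties) and emptiest bins, and 7 classical markers. Genes named in the longest stretches without a summit were chosen after their values were seen. Counting functions were tested on simulated data. Python 3.11.15 was used, with numpy 2.4.6 and pandas 2.3.3 for counting and correlations, scipy 1.17.1 for intervals, and matplotlib 3.10.9 for plots. Alternatives covered single replicate lists, stronger peaks, other arm and promoter limits, other overlaps and other references.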

Additional observations from a re-analysis of the deposited data

How the results depend on the processing

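The higher density on V depended on the number of peaks: V over I to IV was 1.13 for all pooled peaks, 1.04 for the strongest 10000 and reversed to 0.73 in the IDR-thresholded list. It was 1.11 to 1.12 in single replicate lists, 1.15 without IV, and 1.01 with X in the reference. Per annotated start it was 1.52, but V (63.3 peaks per 100 starts) lay within the other autosomes (22.5 on IV, which holds most piRNA genes, to 67.9 on III), and V has 28.5% of autosomal starts outside piRNA genes. Added after seeing the data, the ratio was 1.14 per Mb of unique 31-base words, 1.41 for left arms only and 1.04 without the left arms. The arm to centre ratio of 0.68 was 0.677 to 0.709 in single replicates, 0.637 in the strongest 10000, 0.518 in the IDR-thresholded list, 0.631 with arms taken as the outer 25% at each end and 0.831 per start. The signal ratio of 0.984 was 0.982 to 0.994 in single replicates and 0.964 by percentile rank. The promoter ratio of 1.15 was 1.12 to 1.17 in single replicates, 1.28 in the strongest 10000, 3.13 in the IDR-thresholded list, 1.07 for promoters from 1000 bp upstream to 200 bp downstream and 1.24 for 250 bp on either side. The share in both replicates, 44.4%, was 79.7% of the strongest 10000, 100% in the IDR-thresholded list, 34.1% with at least 50% overlap, 34% by summit, and 11% against the strongest 10000 peaks of each replicate. The IDR-thresholded peaks were retained by comparing replicates, so their 100% was largely fixed by how that list was made. The gene share, 22.5%, was 21.8 to 22.7% in single replicates, 8.27% with the strongest 10000 peaks, 36.3% with the longer promoter and 20.5% with the narrow one. Of 40 alternatives, 10 moved the value by less than the spread between replicates or, for the share in both replicates, stayed in its interval. The causes were not tested. No paired analysis was possible because there is 1 group.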

Other observations

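The cluster of 5S ribosomal RNA and SL1 spliced leader genes on V, from 17115903 to 17132107, holds 14 annotated 5S genes and 12 SL1 genes. It had 2 pooled peaks, of 52.8 and 49.4, and 2 and 1 in replicates 3 and 4. None of the 12 SL1 genes had a promoter summit in any of the 3 lists. Of the 31-base words of the cluster, 17.2% are unique in the genome, and their part in this count was not tested.

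Of genes typical of a tissue, a pooled promoter summit was found for 3 of 6 body wall muscle genes on V, myo-3 (76.3), act-1 (53.4) and tni-3 (39.6), for 1 of 4 intestine genes, asp-1 (58.8), for 1 of 4 germline genes, pos-1 (37.8), for 1 of 4 neuronal genes, egl-3 (56.4), and for 0 of 1 epidermis gene. Of these genes, myo-3, act-1 and asp-1 had a promoter summit in all 3 lists. By contrast, tni-3 and egl-3 had none in either replicate list, and pos-1 did not have one in all 3 lists. The counts are too small to compare tissues.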
